A study of Homo sapiens with 4 samples.

Results

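A stretch of 1 Mb on chromosome 1 (hg19 positions 201000000 to 202000000) that holds PHLDA3, CSRP1 and ELF3 was examined for binding of PPARG in the human lung adenocarcinoma lines NCI-H1993 and NCI-H2347. Members were chosen by position, as the peaks of either deposited list with a midpoint in that window, which gave 12 of 3644 peaks: 3 of 1419 in NCI-H1993 and 9 of 2225 in NCI-H2347. Both lines carried a bacterial artificial chromosome (BAC) transgene for PPARG with a LAP tag, which contains EGFP. Chromatin of fixed, sonicated cells was precipitated with a goat antibody against EGFP and sequenced (ChIP-seq), with 1 ChIP library per line. The labels list an input library for each line as well, which was not analysed here. They name no treatment, although the term PIO, which they do not explain, stands in the names of both lists. They give no number of clones behind either line and no line without the transgene. The window itself was selected on the number of NCI-H2347 peaks in it, so that number is a description and supports nothing, and with 1 library per line no test was made. A peak missing from a list means that nothing passed the authors' threshold there. The lists do not show how deeply either library was sequenced, and a deeper library yields more peaks.

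PPARG is a nuclear receptor that is activated by lipid ligands. It binds DNA as a heterodimer with RXR at direct repeats of the half-site AGGTCA spaced by a single base. It is best known as the regulator of fat cell formation and of lipid handling, and many of its sites lie in introns and between genes rather than at promoters. PHLDA3 encodes a small protein with a pleckstrin homology domain that is induced by p53 and restrains AKT signalling by competing for membrane phosphoinositides. CSRP1 encodes a LIM-domain protein associated with the actin cytoskeleton. ELF3 encodes an ETS-family transcription factor of epithelial cells.

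The genes were placed by intervals given in whole kb: 201434 to 201439 for PHLDA3, 201452 to 201479 for CSRP1 and 201979 to 201987 for ELF3. These intervals are longer than the RefSeq gene records on GRCh38.p14, by 89 bp for PHLDA3, 3406 bp for CSRP1 and 1403 bp for ELF3. A difference in length does not show where the edges lie. The uncertainty of distances to a gene edge is therefore unknown and may be larger than these values. In the RefSeq table, 7 protein-coding genes lie between PHLDA3 and ELF3, in the order CSRP1, NAV1, IPO9, SHISA4, LMOD1, TIMM17A and RNPEP. TNNI1 precedes PHLDA3 and GPR37L1 follows ELF3. That table is on another build, so peaks away from the 3 named genes were not assigned to a gene.

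One NCI-H2347 peak lay at the start of ELF3, and the promoter sequence of this gene is therefore shown, from RefSeq on GRCh38.p14, chr1:202010337-202010636, plus strand. It runs from 250 bases before to 50 bases after the annotated start, and the capitals mark the letters TATAAA.

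ELF3 promoter: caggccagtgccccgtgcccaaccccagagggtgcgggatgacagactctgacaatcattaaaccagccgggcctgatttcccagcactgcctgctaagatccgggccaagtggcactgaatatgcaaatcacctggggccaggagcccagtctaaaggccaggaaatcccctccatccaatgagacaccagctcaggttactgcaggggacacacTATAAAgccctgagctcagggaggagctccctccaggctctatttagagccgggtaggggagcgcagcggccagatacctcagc

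The motif TATAAA begins 34 bases before the annotated start and was present, on either strand, in 11.5% of 35116 promoter windows of this length. The half-site AGGTCA was not found on either strand in the ELF3 window, against 13.8% of all windows, and neither was the direct repeat AGGTCANAGGTCA, against 0.0228%. Each repeat contains the half-site, so these searches overlap. A lack of these letters in 300 bases says nothing about binding of the factor, and whether the printed bases lie under the hg19 peak was not determined. Of the other named genes, CSRP1 had 3 promoter windows in the table and no listed peak.

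PHLDA3 carried the highest-scoring peak of the window, and it was listed in NCI-H2347 alone. This peak spanned 201435059 to 201436294, inside the gene interval, with its midpoint 1.68 kb from the left edge. PHLDA3 is transcribed towards lower coordinates, so the left edge is its 3′ end. Its score of 527 ranked 5 among the 2225 peaks of the line and 2 among its 263 peaks on chromosome 1. The next highest score in the window was 112, and the highest of the whole list was 1002. The score is the authors' own value per peak and was used to order peaks within a list only.

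Another pair of NCI-H2347 peaks lay to the left of PHLDA3, beyond its 3′ end. The nearer peak spanned 201431768 to 201432671, with its midpoint 1.78 kb from the gene interval, and scored 74.7, rank 1158 of the list. The farther spanned 201425474 to 201426693, with its midpoint 7.92 kb away, and scored 71.7, rank 1244. Both stood in the middle of the NCI-H2347 list, with lower scores in 48.0% and 44.0% of the other peaks. The 3 PHLDA3 peaks followed each other with gaps of 5.07 and 2.39 kb and spanned 10.8 kb in all.

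In NCI-H1993 no peak was listed near PHLDA3. The closest NCI-H1993 peak began 243 kb from the gene interval, and the midpoints of the 3 NCI-H2347 peaks were 247 to 257 kb from it. For comparison, 1742 NCI-H2347 peaks overlapped no NCI-H1993 peak, and these were a median of 451 kb from the nearest one. A distance of about 250 kb is therefore not unusual among the unshared peaks of this list.

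CSRP1 had 0 peaks in its interval or within 10 kb of it in both lists. The nearest NCI-H2347 peak was the high-scoring peak in PHLDA3, whose edge was 15.7 kb from the CSRP1 interval. In NCI-H1993 the nearest was 203 kb away. CSRP1 thus sits beside the PHLDA3 peaks without a listed peak of its own.

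**Figure D1:**
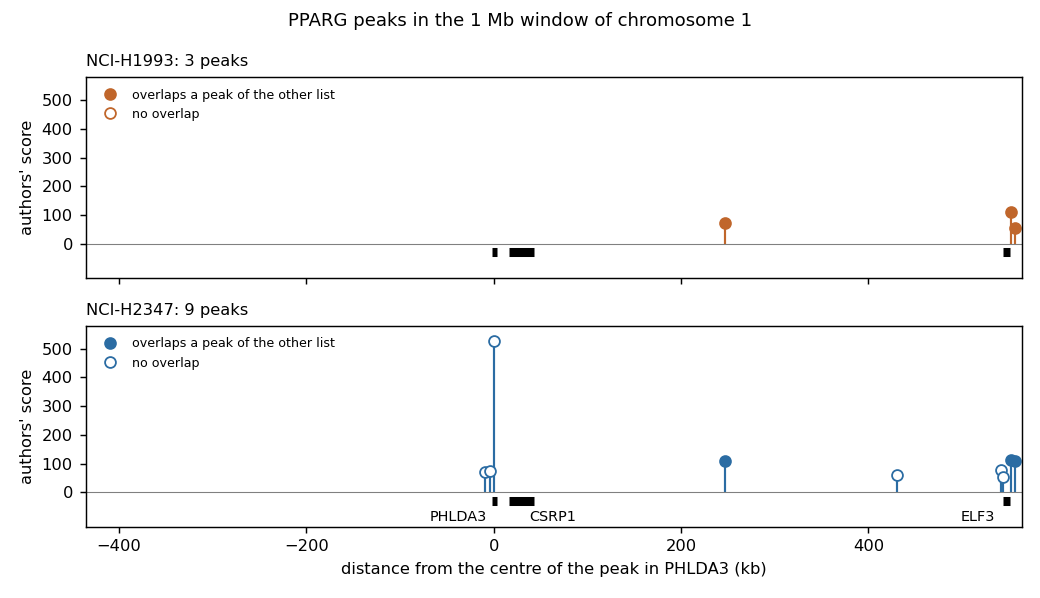
The position of each peak midpoint, in kb from the centre of the peak in PHLDA3, is plotted against the authors' score for NCI-H1993 (top, 3 peaks) and NCI-H2347 (bottom, 9 peaks); filled points overlap a peak of the other list, open points do not, and black bars are the gene intervals. The NCI-H2347 peak in PHLDA3, at 527, stands above the others, which all score 112 or less.

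Both lines had peaks to the right of ELF3, and those peaks were shared. Here a peak is called shared when at least 1 bp overlaps a peak of the other list. ELF3 is transcribed towards higher coordinates, so its right edge is its 3′ end. The nearer shared site was listed by NCI-H1993 at 201987548 to 201988428, where it scored 111 and ranked 263 of 1419. NCI-H2347 listed it at 201987519 to 201988269, where it scored 112 and ranked 597 of 2225. Its midpoints were 0.988 kb and 0.894 kb beyond the right edge of ELF3. The farther site was listed by NCI-H1993 at 201992125 to 201992723, where it scored 55.0 and ranked 1146. NCI-H2347 listed it at 201992171 to 201992882, where it scored 109 and ranked 643. Its midpoints were 5.42 and 5.53 kb beyond ELF3.

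At the other end of ELF3, peaks were listed in NCI-H2347 alone. The one at the start of the gene spanned 201979252 to 201980087 and scored 52.2, at rank 2063. This was among the lowest scores of the list, where the lowest was 50.05. The one upstream spanned 201976383 to 201977101, with its midpoint 2.26 kb from the interval, and scored 78.35, at rank 1091. Their midpoints lay 8.32 and 11.2 kb from the nearest NCI-H1993 peak, which was the shared site at the 3′ end of ELF3. Of the 1742 unshared NCI-H2347 peaks, 4.36% had an NCI-H1993 midpoint within 10 kb and 15.1% within 50 kb. The ELF3 peaks of NCI-H2347 thus lay close to a site of the other line, while those of PHLDA3 did not.

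**Figure D2:**
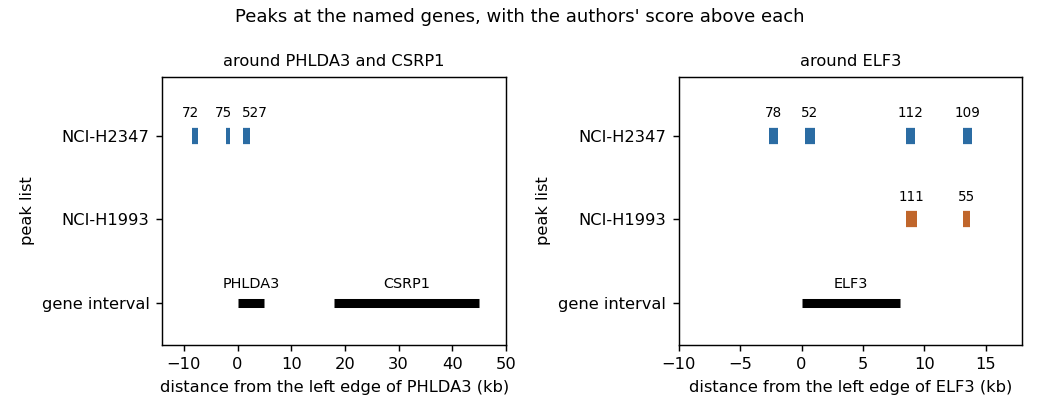
Peaks around PHLDA3 and CSRP1 (left) and around ELF3 (right) are drawn to scale as bars in kb from the left edge of the gene interval, with the authors' score above each bar and the gene intervals in black. At PHLDA3 the 3 bars are all of NCI-H2347, while at ELF3 both lists have the 2 bars to the right of the gene and NCI-H2347 has 2 more at its left end.

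The remaining 3 members lay between CSRP1 and ELF3, away from the named genes. Of these, 2 formed another shared site. The NCI-H1993 list had it at 201682369 to 201683002, and the NCI-H2347 list had it at 201682439 to 201683118. It scored 72.5 at rank 658 in NCI-H1993 and 109.8 at rank 627 in NCI-H2347, about 204 kb to the right of CSRP1. The last was an unshared NCI-H2347 peak at 201865963 to 201866397, 113 kb to the left of ELF3, with a score of 60.9 at rank 1582. At 435 bp it was the narrowest member.

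All 3 NCI-H1993 peaks of the window were shared, against 34.2% of the whole NCI-H1993 list. The window was picked for its many NCI-H2347 peaks, which makes such overlap more likely, so the whole list is not a like comparison. In NCI-H2347, 3 of 9 were shared (33.3%, 95% Wilson interval 12.1% to 64.6%, which covers counting error only and treats neighbouring peaks as independent), against 21.7% of the whole list. The 3 shared sites overlapped over most of their width. Their overlaps were 564, 722 and 553 bp from left to right, which is 82.0% to 92.3% of the NCI-H1993 peak and 77.7% to 96.1% of the NCI-H2347 peak. Their midpoints were 93, 94 and 102.5 bp apart. Over all 486 shared NCI-H1993 peaks the median was 76.25 bp, with quartiles of 33.5 and 133.5 bp. The 3 distances thus lay above the median and within the quartiles. The offset had no single direction, since the NCI-H2347 midpoint was to the right at the leftmost and rightmost sites and to the left at the middle one.

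The shared sites stood at nearly the same rank in NCI-H2347 and far apart in NCI-H1993. In NCI-H2347 their scores exceeded those of 71.9%, 73.1% and 71.1% of the other peaks, and in NCI-H1993 those of 53.7%, 81.5% and 19.3%, from left to right. The 2 percentages of a site differed by 18.2, 8.41 and 51.9 points, from left to right. Over all 486 shared NCI-H1993 peaks the median difference was 22.7 points, with quartiles of 8.75 and 44.2. Differences of this order were thus common, and the contrast rests on 3 sites and was not tested. The lists differ in length, so these percentages are ranks within a list and do not compare binding between the lines.

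Scores of 100 or more were found for 4 of 9 NCI-H2347 members, against 33.0% of that list, and for 1 of 3 NCI-H1993 members, against 23.8%. The highest 10% of each list by score held 1 of the 9 NCI-H2347 members, against 9.98% of that list, and 0 of the 3 NCI-H1993 members, against 9.94%. The 4 peaks of 100 or more were the PHLDA3 peak and the NCI-H2347 peaks of the 3 shared sites. Thus all 3 shared members reached 100 in NCI-H2347, where 57.8% of the 483 shared peaks did, and 1 of the 6 unshared members did, where 26.1% of the 1742 unshared peaks did. The NCI-H1993 members were all shared, and 38.3% of the shared peaks of that list scored 100 or more. The 5 unshared members other than the PHLDA3 peak scored 52.2 to 78.35. The median score of the members was 78.35 in NCI-H2347, with 77.1 for the whole list, and 72.5 in NCI-H1993, with 69.8. Apart from the PHLDA3 peak, the window therefore holds peaks of ordinary score.

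**Figure D3:**
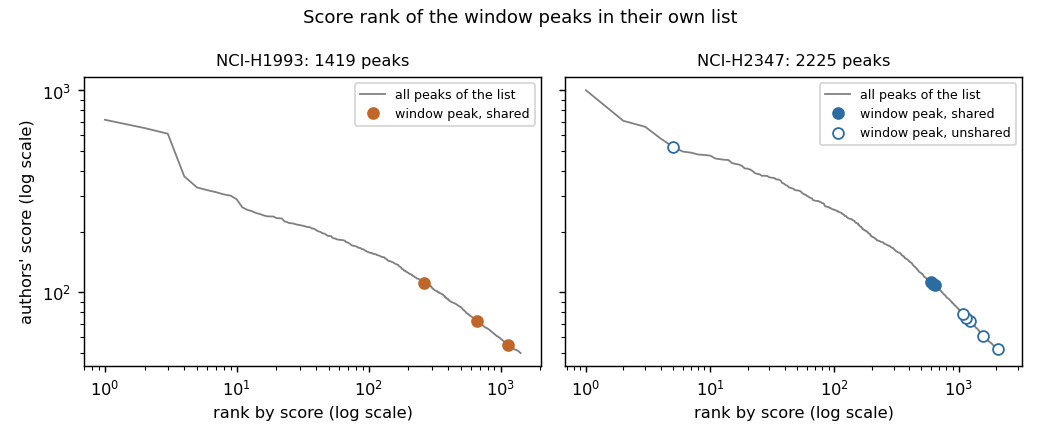
The authors' score is plotted against rank by score, both on log scales, with all peaks of a list as a grey line and the window peaks as points (filled where shared, open where unshared). The PHLDA3 peak is at rank 5 of NCI-H2347, the 3 shared peaks of that line bunch at ranks 597 to 643, and its other 5 members lie at rank 1091 or beyond, while the NCI-H1993 members are at ranks 263, 658 and 1146.

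Peak width was not used to choose the window. The median member was 751 bp wide in NCI-H2347 (435 to 1236 bp) and 634 bp wide in NCI-H1993 (599 to 881 bp). The medians of the whole lists were 832 bp (quartiles 685 and 993 bp) and 731 bp (596 and 905.5 bp). The widest members were the high-scoring peak in PHLDA3, at 1236 bp, and the peak farthest to its left, which scored 71.7, at 1220 bp. Width and score did not go together in this pair.

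Most members sat in 2 close groups, at PHLDA3 and at ELF3. Of the 9 NCI-H2347 members, 7 lay within 10 kb of a named gene, 3 at PHLDA3 and 4 at ELF3. In NCI-H1993, 2 of 3 did, both at ELF3. The genes were named with earlier results of these data known, so this nearness only describes where the members lie. How many peaks of the whole lists lie within 10 kb of any gene was not counted. Peaks separated by gaps of at most 10 kb were joined into runs. The 4 ELF3 peaks of NCI-H2347 formed a run of 16.5 kb, with 2 shared peaks, and the 3 PHLDA3 peaks a run with 0 shared. Among the 2049 runs of that list, single peaks included, 18 held at least 3 peaks and 4 held at least 4. Because the window was picked for its number of NCI-H2347 peaks, long runs in it follow partly from that choice and were not tested. Of those 18 runs, 9 contained 0 shared peaks, the PHLDA3 run among them. In NCI-H1993 the shared ELF3 sites were a run of 2 peaks over 5.18 kb.

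In NCI-H2347 the window opens a region with peaks after a long stretch without them. The first NCI-H2347 member lay 426 kb inside the left edge, and the gap before it was 8.96 Mb, which ranked 3 by length among the 262 gaps between neighbouring peaks of that line on chromosome 1. The last NCI-H2347 peak before the window ended at 192461925, with a score of 84.7. In NCI-H1993 the gap before the first member was 2.22 Mb, which ranked 31 among 145. On the right, the last members lay 7.58 kb (NCI-H1993) and 7.47 kb (NCI-H2347) inside the edge. Just outside it, NCI-H1993 had an unshared peak at 202015255 to 202016027 with a score of 62.3, and the first NCI-H2347 peak followed at 202317171 to 202317891 with a score of 165. The next 3 windows of 1 Mb to the right held 3, 3 and 6 NCI-H2347 peaks and 3, 3 and 3 NCI-H1993 peaks.

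The window was 1 of 5 windows of 1 Mb with at least 9 NCI-H2347 peaks. The others held 12 and 12 peaks on chromosome 17, 10 on chromosome 12 and 9 on chromosome 11, and they had 1, 5, 2 and 1 shared NCI-H2347 peaks. The chromosome 1 window, with 3 of 9 shared, lay between the chromosome 17 window from 57000001, with 5 of 12, and the others. Its highest score, 527, was also the highest in these 5 windows, where the highest scores of the others ranged from 228 to 492. These windows were all picked for their peak number in NCI-H2347, and the differences among them were not tested. In NCI-H1993 the window was not among the fullest, since 127 windows held 3 or more peaks and the fullest held 7. The others of the 5 windows had shared NCI-H1993 peaks too. These were 1 of 1, 5 of 6, 2 of 2 and 1 of 2, in the order above.

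**Figure D4:**
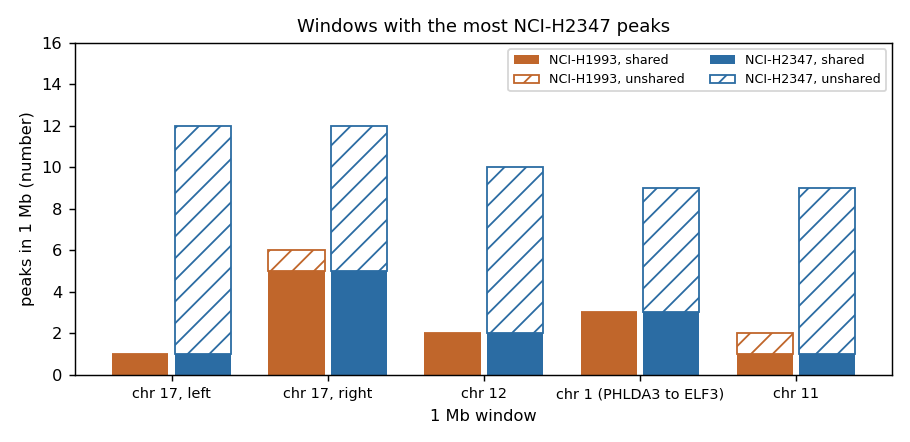
The number of peaks per 1 Mb window is shown for the 5 windows with at least 9 NCI-H2347 peaks, with NCI-H1993 in orange and NCI-H2347 in blue, solid for shared and hatched for unshared peaks. In the chromosome 1 window 3 of 9 NCI-H2347 peaks are shared, and the 3 NCI-H1993 peaks are all shared.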

How the data were processed

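The peak lists of the PPARG ChIP library of NCI-H1993 and of NCI-H2347 were used. Per the submitters' processing notes, MACS 1.4.2 and genome build hg19 were used. For the aligner, read filters, threshold and use of the input libraries, nothing is given in the sources used here. In each deposited list, the score is the authors' own value per peak. Peaks were listed per library, so no replicates were pooled, and read depth is unknown. Starts were converted to 1-based positions. Window, members and genes were chosen with earlier results of these data known. The rule named PHLDA3, CSRP1 and ELF3 and every window peak. A peak was placed at the gene nearest to its midpoint, within 10 kb. Sharing was an overlap of at least 1 bp, and percentiles are shares of the other peaks of a list with a lower score. Promoter windows came from RefSeq on GRCh38.p14, of which 4 matched the named genes (CSRP1 and ELF3). PHLDA3 was not among them. No sequence of hg19 was used. On simulated lists, 200 of 200 planted shared peaks among 1419 were recovered. Each planted peak was centred on an NCI-H1993 peak, and all others were moved to a separate chromosome. An overlap of 1 bp was thus certain, so this checks only that the code runs as written. Python 3.11.15, numpy 2.4.6, pandas 2.3.3, scipy 1.17.1 and matplotlib 3.10.9 were used.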

Additional observations from a re-analysis of the deposited data

How the results depend on the processing

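No paired analysis was possible because each cell line has 1 ChIP library. Of 46 alternative values, 31 stayed close to those reported (a count within 1.5 times, a median within the quartiles of the members) and 15 moved. Among the 31, the NCI-H2347 peaks at PHLDA3 went from 3 to 2 and those at ELF3 from 4 to 3 with 5 kb in place of 10 kb, and those in the window from 9 to 8 when it was moved to the right. The moves follow from the settings themselves, which keep fewer peaks or take another stretch. Several of the 31 could not move, so the tally does not measure robustness. A count of 0 within 10 kb of a gene stays 0 within 5 kb or in the interval alone. All 3 NCI-H1993 members were already shared, so an allowed gap could not add to them. With 25 kb, the NCI-H2347 peak 15.7 kb from CSRP1 was still placed at PHLDA3, its nearest gene. Limiting both lists to scores of 100 or more left 1 NCI-H1993 peak (width 881 bp) and 4 NCI-H2347 peaks in the window, and 1 was shared in each line. With the window moved by 500 kb to the left, it held 0 NCI-H1993 and 3 NCI-H2347 peaks, and to the right it held 6 NCI-H1993 peaks. The gene intervals alone held 1 NCI-H2347 peak at PHLDA3, 1 at ELF3 and 0 NCI-H1993 peaks at ELF3, and with 5 kb added the last was 1. The highest 10% of each list by score held 0 NCI-H1993 and 1 NCI-H2347 member, and the highest 25% held 1 NCI-H2347 member, the PHLDA3 peak, in place of the 4 with scores of 100 or more. There were 3 shared members in each line under 50% reciprocal overlap, under a limit of 250 bp between midpoints, under an allowed gap of 500 bp and with the NCI-H2347 list shortened by score to 1419 peaks. The shortened list kept scores of 65.79 or more and 7 NCI-H2347 members. The peak at the start of ELF3, at 52.2, and the unshared peak at 60.9 were no longer in it. Without a known depth, absence from a list is not absence of binding.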
